A study of Mus musculus with 30 samples.

Results

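Cdh1, Cdh2, Epcam, Vim, Fn1, Zeb1, Zeb2, Snai1 and Snai2 are the genes most often read to place a cell between an epithelial and a mesenchymal state. They were taken by symbol from both count tables of the study, and all 9 were found, out of 52630 genes in the time-course table, 55487 in the passage table and 52177 in both. All 9 passed the filter on low counts in both experiments. The cells were E14tg2a, an established mouse embryonic stem cell (ESC) line, assayed by RNA-seq of total RNA with 3 libraries in each of 10 groups. In the time course, cells kept in Serum/LIF (serum with the cytokine leukaemia inhibitory factor; control, labelled 0 h) were compared with cells moved for 3, 9 or 24 h into Enhanced Metabolic Media (EMM), which is Serum/LIF medium with glucose and pyruvate replaced by galactose. In the second experiment, cells were grown for 10 passages (P10) or 20 passages (P20) in Serum/LIF, in EMM or in 2i/LIF, the medium that combines LIF with inhibitors of the kinases MEK and GSK3. LIF was present in every group, all groups come from 1 cell line, and whether the P20 cultures descend from the P10 cultures is not given in the sources used here.

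E-cadherin, encoded by Cdh1, is the calcium-dependent adhesion protein that holds ESC colonies together, and EpCAM is a second epithelial surface protein. N-cadherin (Cdh2), the intermediate filament protein vimentin (Vim) and the matrix glycoprotein fibronectin (Fn1) are the usual mesenchymal counterparts. Zeb1, Zeb2, Snai1 and Snai2 are zinc-finger factors known to bind E-box motifs with the core CAGGTG and to repress Cdh1 and other epithelial genes. ESCs in culture express genes of both kinds, so a label of epithelial or mesenchymal is background here and not a result.

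Because these factors read the same short motif, the promoters of an epithelial member and of a regulator that moved in opposite directions within 24 h of EMM are shown. RefSeq start-site windows of build GRCm38.p6 were matched for 4 of the 9 genes (7 windows), namely Epcam, Snai1, Vim and Zeb2. The capitals mark CAGGTG or its reverse complement CACCTG in the 250 bases before the start, on the gene's strand, at chr17:87635729-87635978 (+) and chr2:167537945-167538194 (+).
Epcam: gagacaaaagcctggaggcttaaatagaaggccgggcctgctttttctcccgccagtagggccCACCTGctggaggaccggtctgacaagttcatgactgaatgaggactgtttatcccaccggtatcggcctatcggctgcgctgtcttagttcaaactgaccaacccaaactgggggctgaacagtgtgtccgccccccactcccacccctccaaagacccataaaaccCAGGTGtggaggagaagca
Snai1: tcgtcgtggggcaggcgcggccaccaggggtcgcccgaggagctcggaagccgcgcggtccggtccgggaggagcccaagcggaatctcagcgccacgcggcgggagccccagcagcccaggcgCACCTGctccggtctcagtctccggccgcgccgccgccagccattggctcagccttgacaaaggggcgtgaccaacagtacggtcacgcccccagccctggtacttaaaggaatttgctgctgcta
The Epcam window held 2 matches, whose first letters lie at positions −187 and −19 relative to the start, and the Snai1 window held 1 match, at −126. No match was present in the Vim window or in the 4 Zeb2 windows. Over all 32851 windows of 300 bases, 20.2% held at least 1 match on either strand and 2.88% at least 2. A match describes the sequence and was not tested for binding.

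Total counts ran from 24074132 to 35301962 per library in the time course and from 6944918 to 27912959 in the passage experiment, where a P20 2i/LIF library was the shallowest. In that library 1 gene, CT010467.1, took 3.95% of all counts. All 9 ESC markers examined, Pou5f1, Nanog and Sox2 among them, were above 3 counts in at least 1 library of every group, with a summed level of 3260 to 5530 CPM (counts scaled to the library's effective size) per library. Markers of fibroblasts differed with the medium, although the study's methods describe culture on gelatinized plastic and name no feeder cells. The 8 markers summed to 46 to 71.7 CPM in the time course, 147 to 175 in P10 Serum/LIF and 235 to 465 in P20 Serum/LIF. In EMM they summed to 21 to 24.7 CPM at P10 and 12.3 to 14.7 at P20, and in 2i/LIF to 5.58 to 7.95 over both passages. Dcn was at 0 in all 6 libraries of 2i/LIF, Postn in all 6 libraries of passaged EMM, and Lum in the P10 EMM libraries. P20 Serum/LIF replicate 3 stood apart with 465 CPM against 235 and 259, and the values that turn on it are given below with and without it. In bulk RNA, fewer cells of a type and less RNA per cell cannot be told apart.

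In the following, a normalized count is a count divided by the library's effective size (its total scaled by edgeR's TMM factor) and multiplied by the mean effective size of the experiment, so values compare within an experiment and not between the time course and the passages. A gene is said to have changed where edgeR's quasi-likelihood test gave a Benjamini-Hochberg adjusted p under 0.01 over all tested genes, 16049 in the time course and 16054 in the passage experiment. Log2 differences are followed by their standard error (SE). By the GENCODE M21 annotation of mm10, the genes lie apart: Cdh1 at chr8:106603351-106670246 (+), Epcam at chr17:87635979-87651129 (+), Cdh2 at chr18:16588877-16809246 (−), Vim at chr2:13573927-13582826 (+), Fn1 at chr1:71585520-71653200 (−), Zeb1 at chr18:5591860-5775467 (+), Zeb2 at chr2:44983632-45117395 (−), Snai1 at chr2:167538195-167542814 (+) and Snai2 at chr16:14705852-14709385 (+).

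The first question was how these genes move in the first day after glucose is withdrawn. All 9 changed by 24 h of EMM, Cdh1 and Epcam downwards and the other 7 upwards, where 44.0% of all tested genes changed (21.8% higher and 22.2% lower). At 3 h 5 members had changed, 3 of them higher, beside 34.5% of all genes, and at 9 h 8 had changed, 6 of them higher, beside 38.2%. The shifts were small, the largest being the rise of Snai1 by 0.98 on the log2 scale at 3 h. The control is labelled 0 h while its protocol speaks of 24 h in Serum/LIF, so which EMM time point it matches in time is not settled here, and at the others time in culture and the new medium cannot be told apart.

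**Figure D1:**
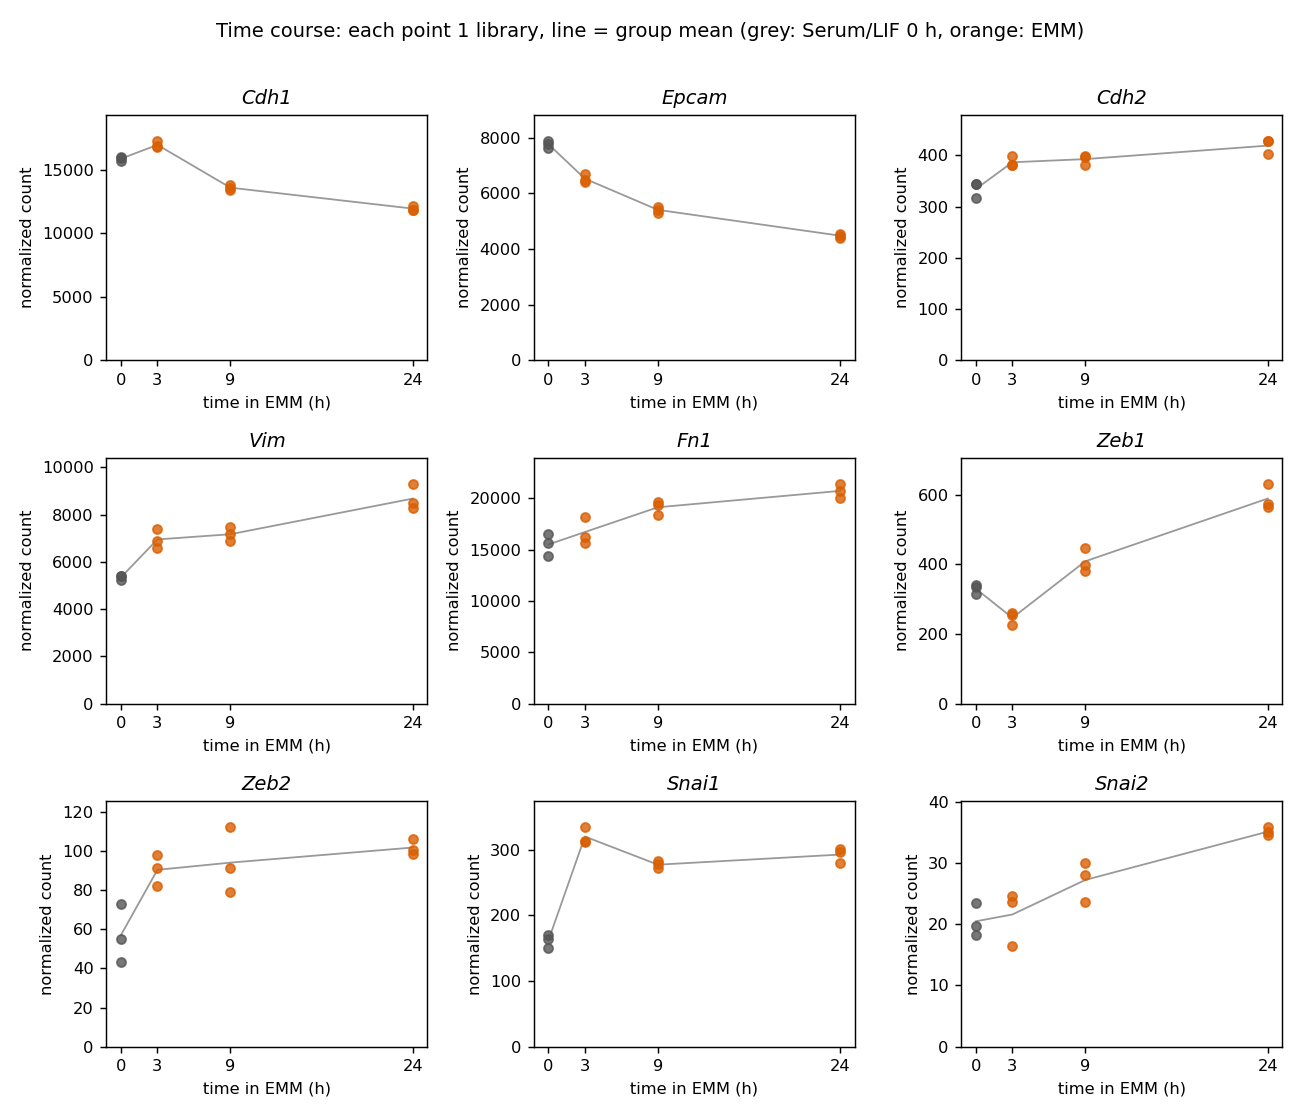
Normalized counts (vertical axes, from 0) of the 9 genes against hours in EMM (horizontal axes); each point is 1 library, grey for Serum/LIF at 0 h and orange for EMM, and the line joins the means of 3 libraries. Cdh1 and Epcam end below all Serum/LIF libraries, Zeb1 dips at 3 h before it rises, and Snai1 is highest at 3 h.

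Cdh1 had normalized counts of 15719, 16018 and 15958 in Serum/LIF and of 17307, 16790 and 16884 after 3 h of EMM. These values did not overlap, yet the difference of 0.10 (SE 0.03) missed the threshold at an edgeR adjusted p of 0.0191. At 9 h the libraries stood at 13622, 13812 and 13413, lower by 0.22 on the log2 scale than Serum/LIF (SE 0.03, edgeR adjusted p = 2.67e-05). By 24 h they had reached 12181, 11840 and 11868, and the fall against Serum/LIF was −0.41 (SE 0.03, edgeR adjusted p = 3.99e-08). Cdh1 also fell between 3 and 9 h (−0.32) and between 9 and 24 h (−0.19), with edgeR adjusted p-values of 1.95e-06 and 0.000562. The DESeq2 Wald test placed the small early difference at 3 h past the threshold (0.11, adjusted p = 0.00353), while the other settings gave it no call.

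Epcam declined at every step. Its libraries went from 7782, 7892 and 7652 normalized counts in Serum/LIF to 6706, 6416 and 6474 at 3 h, a fall of −0.25 (SE 0.03, edgeR adjusted p = 1.81e-05). At 9 h they held 5314, 5416 and 5501, and at 24 h 4553, 4472 and 4413. No time point overlapped with the one before it. The decline against Serum/LIF reached −0.80 at 24 h (SE 0.03, edgeR adjusted p = 7.52e-11), the largest fall among the members.

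Cdh2, at a far lower count, moved the other way. Serum/LIF libraries held 316, 344 and 344 normalized counts and the 24 h EMM libraries 427, 428 and 402, without overlap, a rise of 0.32 (SE 0.06, edgeR adjusted p = 0.000376). At 3 h, with 381, 398 and 381, the difference was 0.21 and missed the threshold (edgeR adjusted p = 0.0122). The 9 h value of 0.23 passed at an edgeR adjusted p of 0.00581, but 5 alternative settings and the removal of any of 3 single libraries took it past 0.01 (adjusted p from 0.0126 to 0.0387). Between 3 and 24 h of EMM neither step changed.

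Vim rose from 5382, 5411 and 5242 normalized counts in Serum/LIF to 6584, 7373 and 6896 at 3 h, by 0.38 (SE 0.05, edgeR adjusted p = 2.23e-05). It stood at 7161, 7475 and 6879 at 9 h, where the step from 3 h was 0.05 and missed the threshold (edgeR adjusted p = 0.518), and at 9292, 8263 and 8493 at 24 h. All EMM libraries were above all Serum/LIF libraries, and the 24 h rise was 0.70 (SE 0.05, edgeR adjusted p = 2.57e-08). Fn1 was slower and noisier. Serum/LIF held 15607, 14378 and 16527, the 3 h libraries 18210, 15687 and 16255 overlapped with them, and the difference of 0.11 was not called (edgeR adjusted p = 0.137). By 24 h, with 20742, 20068 and 21383, Fn1 was higher by 0.42 (SE 0.06, edgeR adjusted p = 1.9e-05).

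The 4 repressors followed different courses. Snai1 went from 171, 165 and 150.0 normalized counts in Serum/LIF to 314, 334 and 312 at 3 h (log2 difference 0.98, SE 0.07, edgeR adjusted p = 6.36e-08). It then stood at 282, 278 and 272 at 9 h and 297, 302 and 280 at 24 h, each above all Serum/LIF libraries. The step down from 3 to 9 h, of −0.21, missed the threshold (edgeR adjusted p = 0.0254), and the 24 h value against Serum/LIF was 0.85 (SE 0.07, edgeR adjusted p = 1.83e-07). Snai2 stayed low throughout, with 18.2, 19.7 and 23.5 in Serum/LIF and between 34.6 and 35.8 in the 3 libraries at 24 h. Its 24 h rise of 0.77 (SE 0.20) passed at an edgeR adjusted p of 0.00445. That call was lost in the DESeq2 Wald test (adjusted p = 0.0321), with the description numbers as a block (0.0244) and without any of 5 single libraries (0.0104 to 0.0169).

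Zeb1 was the only member called in opposite directions along the time course. From 334, 315 and 340 normalized counts in Serum/LIF it fell to 224, 253 and 261 at 3 h (−0.42, SE 0.08, edgeR adjusted p = 0.00084). It then rose to 448, 380.0 and 398 at 9 h, a step of 0.73 (SE 0.08, edgeR adjusted p = 7.19e-06), and to 564, 573 and 630.0 at 24 h, a further 0.53 (SE 0.08, edgeR adjusted p = 0.000185). The 24 h level of Zeb1 lay 0.84 above Serum/LIF (SE 0.08, edgeR adjusted p = 3.79e-07), and the libraries of the 4 time points did not overlap. Its 9 h value against Serum/LIF, 0.31, passed at an edgeR adjusted p of 0.00459 and was lost with the description numbers as a block and without Serum/LIF replicate 1 or 2 or 9 h replicate 1 (adjusted p from 0.0103 to 0.024). Zeb2 held 72.7, 43.4 and 54.8 in Serum/LIF and 97.8, 91.1 and 82.0 at 3 h, a rise of 0.68 (SE 0.17, edgeR adjusted p = 0.0046). It remained between 79.0 and 112 at 9 h and between 98.6 and 106 at 24 h, where the rise was 0.85 (SE 0.17, edgeR adjusted p = 0.000584). The Serum/LIF libraries of Zeb2 spread widely, and the 3 h call was lost without either of 2 Serum/LIF libraries or either of 2 EMM libraries (adjusted p from 0.0136 to 0.0299). Step by step, 3 of the 9 members changed from 3 to 9 h, beside 26.5% of all genes, and 4 from 9 to 24 h, 2 in each direction, beside 13.0% (6.02% lower).

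The passage experiment asks whether long culture in EMM resembles Serum/LIF or 2i/LIF for these genes. The difference between EMM and Serum/LIF was smaller at P20 than at P10 for Cdh1, Epcam and Zeb1, while that of Vim turned its sign. By the size of the log2 difference, P20 EMM lay nearer to Serum/LIF for Cdh1, Epcam, Cdh2, Fn1, Zeb2 and Snai1, and nearer to 2i/LIF for Vim, Zeb1 and Snai2. At P10 Epcam lay nearer to 2i/LIF (0.42, against −1.22 from Serum/LIF), and the other genes kept their side except Zeb2. Zeb2 was not placed at P10, as 2i/LIF was at the detection floor there. Whether these sizes differ was not tested. Of the 9 members, 6 changed between EMM and Serum/LIF at P10, 2 higher and 4 lower, beside 37.4% of all tested genes. At P20 4 changed, 1 higher and 3 lower, beside 26.0%. Passage 10 and passage 20 were harvested as separate groups of libraries, so passage number and culture batch cannot be told apart.

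**Figure D2:**
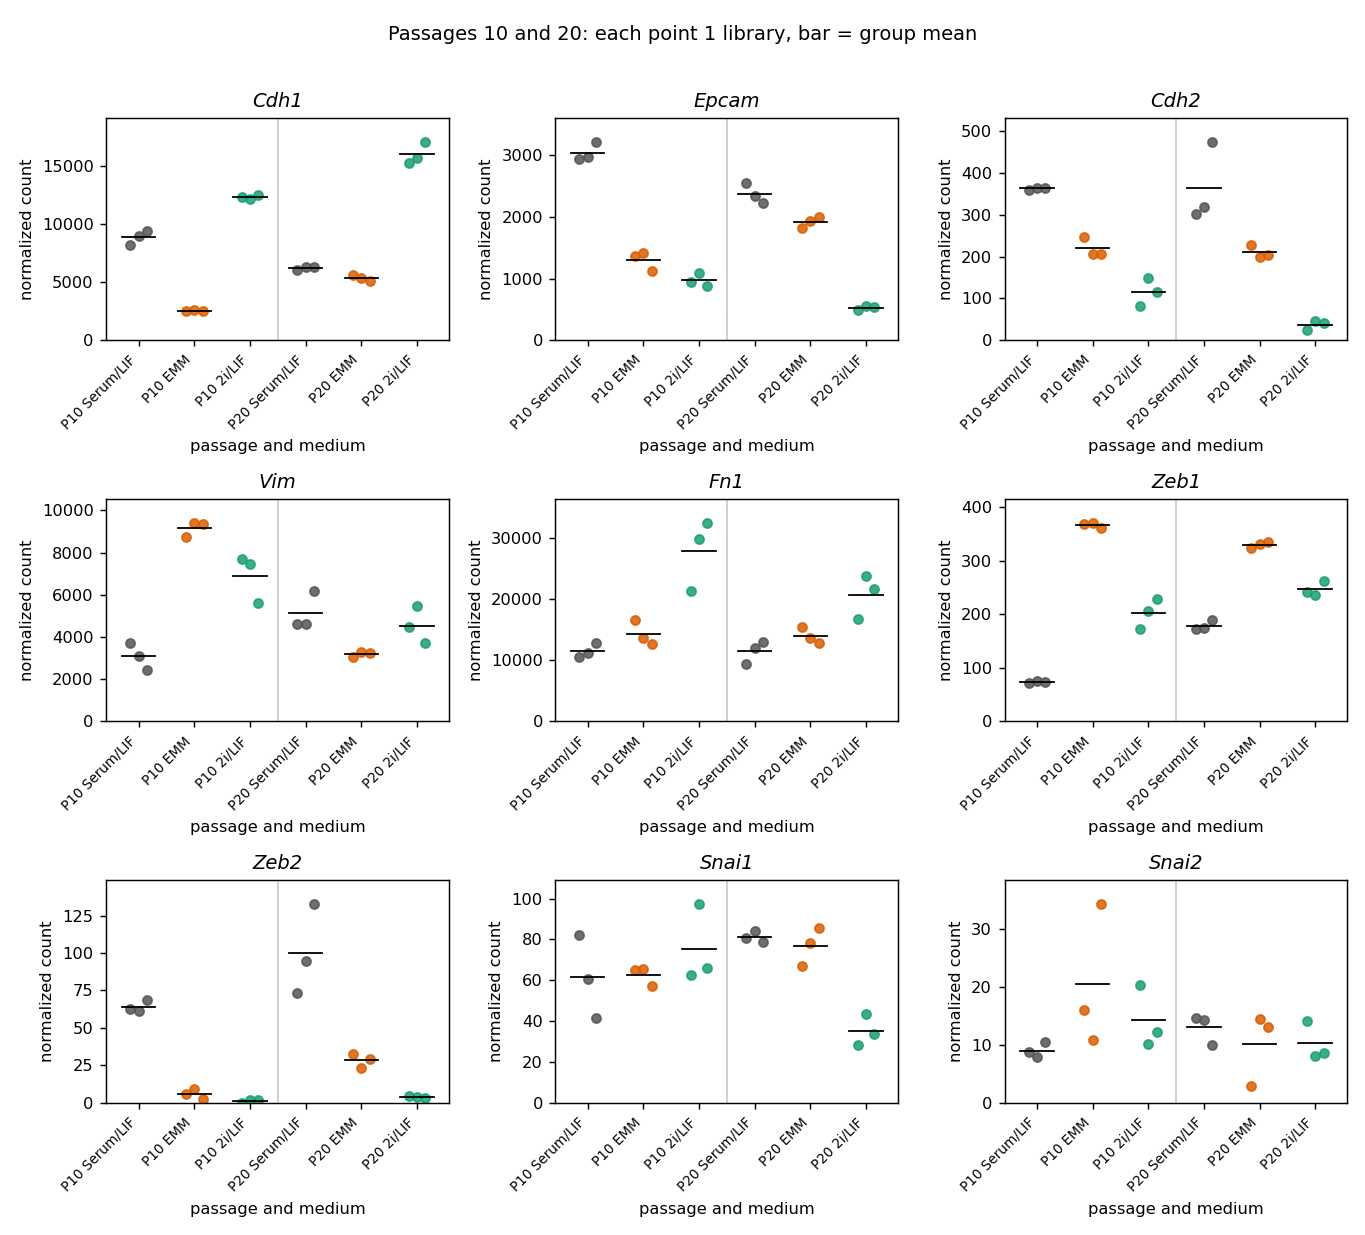
Normalized counts (vertical axes, from 0) of the 9 genes in the 6 passage groups (horizontal axes); each point is 1 library, grey for Serum/LIF, orange for EMM and green for 2i/LIF, and the bar is the mean of 3 libraries. Cdh1 is highest in 2i/LIF, while Epcam, Cdh2 and Zeb2 are lowest there, and Vim is highest in P10 EMM.

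Among Cdh1, Epcam and Cdh2, Cdh1 had the largest difference between P10 EMM and Serum/LIF. Its libraries held 8249, 8948 and 9380 normalized counts in P10 Serum/LIF, 2525, 2576 and 2566 in P10 EMM, and 12340, 12193 and 12483 in P10 2i/LIF. No groups overlapped, and EMM was lower than Serum/LIF by −1.79 (SE 0.07, edgeR adjusted p = 9.87e-13) and lower than 2i/LIF by −2.27 (SE 0.07, edgeR adjusted p = 2.33e-14). At P20 the values were 6029, 6331 and 6279 in Serum/LIF, 5646, 5332 and 5074 in EMM, and 15253, 15736 and 17092 in 2i/LIF. EMM and Serum/LIF still did not overlap at P20, but their difference of −0.22 (SE 0.07) missed the threshold at an edgeR adjusted p of 0.0137. With 6 alternative settings the same difference passed (−0.23 to −0.37, adjusted p from 0.000451 to 0.00692). The gap between EMM and Serum/LIF was smaller at P20 by 1.58 (SE 0.09, edgeR adjusted p = 1.51e-09 for the difference between passages). Within EMM, Cdh1 rose from P10 to P20 by 1.07 (SE 0.07, edgeR adjusted p = 2.47e-09), and within Serum/LIF it fell by −0.51 (SE 0.07, edgeR adjusted p = 5.89e-05).

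In 2i/LIF, Cdh1 was higher at P20 than at P10 by 0.38 (SE 0.07, edgeR adjusted p = 0.000166), a call lost with only the 2 groups in the fit (adjusted p = 0.0185) and kept when those 6 libraries were paired by number (adjusted p = 0.00287). Cdh1 lies on chromosome 8, and genes of that chromosome were generally higher in P20 2i/LIF. The median of its 833 tested genes was 0.32, with 72.4% of them higher, where the median of all tested genes was −0.02. Scaled to the other genes of chromosome 8, the Cdh1 difference was −0.01 (SE 0.07, edgeR adjusted p = 0.905). The same scaling left EMM lower than 2i/LIF at P20 by −1.28 (SE 0.08, edgeR adjusted p = 7.14e-11) in place of −1.58 (SE 0.07), and 2i/LIF above Serum/LIF by 0.90 (SE 0.08, edgeR adjusted p = 8.83e-09) in place of 1.37 (SE 0.07). Whether the number of copies of the chromosome differed was not tested.

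**Figure D3:**
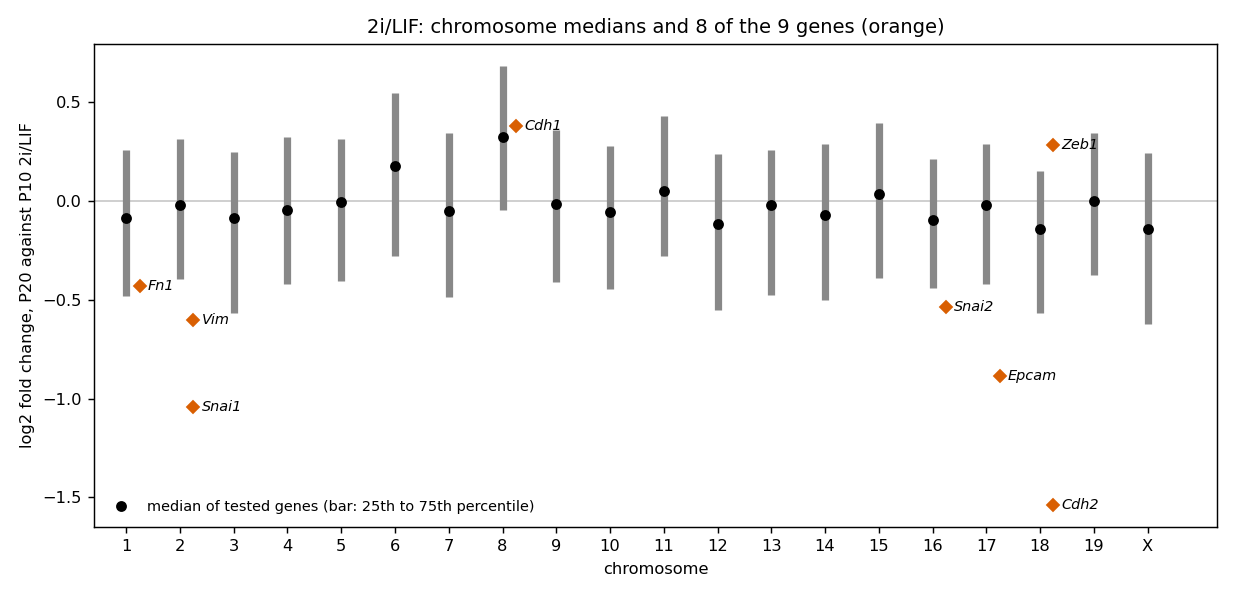
Log2 fold change of P20 against P10 2i/LIF (vertical axis) by chromosome (horizontal axis); black points are the medians of the tested genes of a chromosome, grey bars run from the 25th to the 75th percentile, and orange diamonds are the members, without Zeb2, which had at most 5 counts in each of the 6 libraries. The chromosome 8 median of 0.32 is the highest, and Cdh1, at 0.38, sits beside it.

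Epcam, unlike Cdh1, was lowest in 2i/LIF. At P10 it stood at 2930, 2964 and 3215 normalized counts in Serum/LIF, 1362, 1409 and 1120 in EMM, and 948, 1092 and 884 in 2i/LIF. EMM was below Serum/LIF by −1.22 (SE 0.09, edgeR adjusted p = 6.48e-09) and above 2i/LIF by 0.42 (SE 0.09, edgeR adjusted p = 0.000989), the latter a call lost with only the 2 groups in the fit (adjusted p = 0.0118). At P20 the libraries held 2553, 2336 and 2219 in Serum/LIF, 1814, 1939 and 2001 in EMM, and 489, 550.5 and 533 in 2i/LIF. The P20 difference between EMM and Serum/LIF, −0.30 (SE 0.09), missed the threshold (edgeR adjusted p = 0.0125) and passed in 5 alternative settings (adjusted p from 0.00141 to 0.00718). EMM was above 2i/LIF by 1.86 at P20 (SE 0.10, edgeR adjusted p = 1.61e-11). From P10 to P20 Epcam rose in EMM by 0.56 (SE 0.09) and fell in 2i/LIF by −0.88 (SE 0.10), with edgeR adjusted p-values of 0.000143 and 1.83e-06. In Serum/LIF the step was −0.36 (SE 0.09) without overlap and missed the threshold (edgeR adjusted p = 0.0133). It passed in some alternative settings (adjusted p from 0.00089 to 0.00916).

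Cdh2 was graded across the media, with Serum/LIF highest and 2i/LIF lowest at both passages. P10 Serum/LIF held 360, 365 and 364 normalized counts, P10 EMM 248, 207 and 206, and P10 2i/LIF 81.6, 148 and 116, with no overlap between media. EMM was lower than Serum/LIF by −0.71 (SE 0.19, edgeR adjusted p = 0.0047) and higher than 2i/LIF by 0.94 (SE 0.20, edgeR adjusted p = 0.000742). The first of these calls was lost without any of 5 single libraries (−0.65 to −0.71, adjusted p from 0.0137 to 0.0231). At P20 the counts were 302, 318 and 474 in Serum/LIF, 227, 199 and 205 in EMM, and 23.5, 47.3 and 40.2 in 2i/LIF. EMM was 0.79 lower than Serum/LIF on the log2 scale (−0.79, SE 0.18, edgeR adjusted p = 0.00232) and 2.39 higher than 2i/LIF (SE 0.23, edgeR adjusted p = 4.42e-08). Without P20 Serum/LIF replicate 3, the library with the highest fibroblast markers, the difference from Serum/LIF was −0.56 and no longer passed (adjusted p = 0.0238), as it also failed without P20 EMM replicate 2 or 3 (−0.75 and −0.77, adjusted p = 0.0145 and 0.0117). Cdh2 fell in 2i/LIF between the passages by −1.54 (SE 0.24, edgeR adjusted p = 6.15e-05), while in EMM and in Serum/LIF the differences were −0.08 (SE 0.19) and −0.00 (SE 0.18), neither of them called.

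Vim reversed its order between the passages. P10 EMM libraries held 8754, 9400 and 9353 normalized counts, above all P10 Serum/LIF libraries at 3718, 3118 and 2441, a difference of 1.57 (SE 0.16, edgeR adjusted p = 2.6e-07). P20 EMM libraries held 3044, 3286 and 3258, below all P20 Serum/LIF libraries at 4609, 4596 and 6173, a difference of −0.68 (SE 0.16, edgeR adjusted p = 0.00223). The change of the EMM effect between passages was −2.25 (SE 0.22, edgeR adjusted p = 9.95e-07). Within EMM, Vim fell by −1.52 from P10 to P20 (SE 0.16, edgeR adjusted p = 1.28e-06). In Serum/LIF it rose by 0.73 (SE 0.16, edgeR adjusted p = 0.0051), a call lost without P10 Serum/LIF replicate 2 or 3 or P20 Serum/LIF replicate 3 (0.57 to 0.73, adjusted p from 0.023 to 0.0351). The P20 difference between EMM and Serum/LIF likewise did not pass without P20 Serum/LIF replicate 3 (−0.53, adjusted p = 0.0199) or P20 EMM replicate 1 (−0.64, adjusted p = 0.0128).

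For Vim in 2i/LIF, the libraries held 7672, 7471 and 5588 at P10 and 4469, 5445 and 3704 at P20. P10 2i/LIF was above P10 Serum/LIF by 1.16 (SE 0.16, edgeR adjusted p = 5.01e-06), whereas at P20 the difference of −0.17 (SE 0.16) was not called. The P20 EMM value was lower than 2i/LIF by −0.51 (SE 0.16), just inside the threshold at an edgeR adjusted p of 0.00976. The adjusted p was above 0.01, from 0.0122 to 0.0771, in 4 alternative settings and without any of 5 single libraries. The fall of Vim from P10 to P20 in 2i/LIF, −0.60 (SE 0.16, edgeR adjusted p = 0.00497), was lost with only the 2 groups in the fit (adjusted p = 0.0295) and without any of 4 single libraries (0.0139 to 0.0318), and was kept when the 6 libraries were paired by number (−0.59, SE 0.08, adjusted p = 0.000414).

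**Figure D4:**
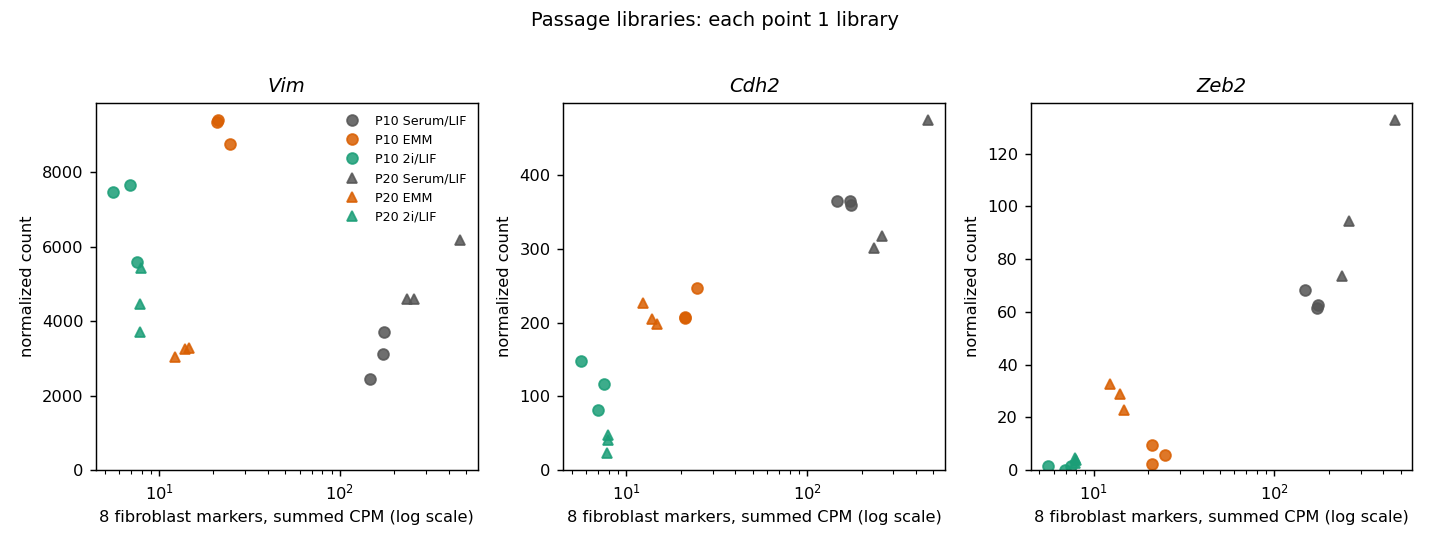
Normalized counts of Vim, Cdh2 and Zeb2 (vertical axes, from 0) against the summed CPM of 8 fibroblast markers (horizontal axes, log scale) in the 18 passage libraries; circles are P10, triangles are P20, and colours are the media. P20 Serum/LIF replicate 3, at 465 CPM, is the highest library for Cdh2 and Zeb2, while Vim is highest in P10 EMM, where the markers sum to 21 to 24.7 CPM.

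The fibroblast markers moved with some of these genes and not with others. Within P20 Serum/LIF, replicate 3 had the highest Vim, Cdh2 and Zeb2 and also the highest Col1a1, the main type I collagen gene, at 348 CPM against 180 and 198. In P10 EMM, where Vim was highest of all groups, Col1a1 was at 0.309 to 1.17 CPM and Lum and Postn were at 0. Lum was at or under 0.185 CPM in Serum/LIF too and reached 0.903 in 2i/LIF. Thy1, a surface glycoprotein gene also on the fibroblast list, went the other way, at 16.6 to 22.9 CPM in P10 EMM against 7.35 to 10.7 in P10 Serum/LIF (1.14, SE 0.22, edgeR adjusted p = 0.000309), and made up most of the marker sum in P10 EMM. Of the 6 markers tested there, 5 were lower and 1 higher than in Serum/LIF. The part of fibroblast-like cells in the Serum/LIF values was not tested.

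Fn1 was most abundant in 2i/LIF. It held 10570, 11204 and 12900 normalized counts in P10 Serum/LIF, 16593, 13649 and 12753 in P10 EMM, and 21435, 29936 and 32510 in P10 2i/LIF. The P20 libraries held 9390, 12025 and 13043 in Serum/LIF, 15447, 13742 and 12930 in EMM, and 16727, 23753 and 21634 in 2i/LIF. EMM and Serum/LIF overlapped at both passages, with differences of 0.31 and 0.29 (SE 0.16 each, edgeR adjusted p = 0.113 and 0.161). EMM was below 2i/LIF by −0.96 at P10 (SE 0.16, edgeR adjusted p = 5.18e-05) and by −0.56 at P20 (SE 0.16, edgeR adjusted p = 0.00521). The P20 call was lost without P20 2i/LIF replicate 2 or 3 or P20 EMM replicate 2 or 3 (−0.45 to −0.54, adjusted p from 0.0184 to 0.0335). From P10 to P20 in 2i/LIF the groups overlapped and the difference of −0.43 (SE 0.16) was not called (edgeR adjusted p = 0.0355), yet each P20 library was below the P10 library of the same number. With the replicate number as a block within 2i/LIF the fall passed (−0.43, SE 0.12, edgeR adjusted p = 0.00558).

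Zeb1 was higher in EMM than in Serum/LIF at both passages, as it was at 24 h in the time course. It held 72.3, 76.4 and 72.9 normalized counts in P10 Serum/LIF, 370, 371 and 362 in P10 EMM, and 173, 206 and 229 in P10 2i/LIF. The rise in EMM over Serum/LIF was 2.31 (SE 0.11, edgeR adjusted p = 1.54e-11), and over 2i/LIF 0.85 (SE 0.10, edgeR adjusted p = 1.46e-06). At P20 the libraries held 173, 174 and 189 in Serum/LIF, 324, 331 and 335 in EMM, and 242, 237 and 263 in 2i/LIF, again without overlap. The P20 rise over Serum/LIF was 0.89 (SE 0.10, edgeR adjusted p = 2.26e-06), smaller than at P10 by −1.43 (SE 0.15, edgeR adjusted p = 1.67e-06). In Serum/LIF Zeb1 itself rose from P10 to P20 by 1.27 (SE 0.11, edgeR adjusted p = 1.48e-06), whereas in EMM the difference was −0.16 (SE 0.10, edgeR adjusted p = 0.221). The P20 difference between EMM and 2i/LIF, 0.41 (SE 0.10, edgeR adjusted p = 0.00155), was lost without the filter on low counts (adjusted p = 0.0189) and when scaled to its own chromosome (0.30, adjusted p = 0.0108).

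Zeb2, by contrast, was highest in Serum/LIF and lowest in 2i/LIF. P10 Serum/LIF held 62.7, 61.5 and 68.2 normalized counts and P10 EMM 5.63, 9.35 and 2.29, from 7, 6 and 1 deposited counts, a difference of −3.39 (SE 0.37, edgeR adjusted p = 5.29e-07). In P10 2i/LIF every library was at or under 3 counts, the floor set here for detection, so Serum/LIF was at least 16.7-fold higher and P10 EMM at least 1.5-fold higher than 2i/LIF, set against the mean floor of the group. The call between P10 EMM and 2i/LIF (edgeR adjusted p = 0.00732) was lost in the DESeq2 Wald test (0.026), without the filter on low counts (0.0139) and without any of 5 single libraries (0.0158 to 0.0515). At P20 the libraries held 73.5, 94.3 and 133 in Serum/LIF, 32.6, 22.9 and 29.0 in EMM, and 4.70, 3.69 and 2.87 in 2i/LIF, the last from 2, 5 and 3 deposited counts. EMM was lower than Serum/LIF by −1.83 (SE 0.28, edgeR adjusted p = 4.56e-05) and higher than 2i/LIF by 2.93 (SE 0.40, edgeR adjusted p = 5.38e-06), and between P10 and P20 EMM it rose by 2.19 (SE 0.38, edgeR adjusted p = 0.000232). The difference between EMM and Serum/LIF at P20 was a fall in every fit with 1 library left out. Zeb2 shares exon sequence with the antisense gene Zeb2os, and use of the strand in counting is not given in the sources used here. Reads in the shared part therefore cannot be told apart. Summed over libraries, counts given to Zeb2os were 0.291% of those given to Zeb2 in the time course and 1.26% in the passages. No passage library held over 2 counts of Zeb2os, and the share in single libraries, some with few Zeb2 counts, was not taken.

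Snai1 and Snai2 were low in long culture. Snai1 held 82.0, 60.5 and 41.6 normalized counts in P10 Serum/LIF, 65.1, 65.5 and 57.3 in P10 EMM, and 62.8, 97.3 and 66.0 in P10 2i/LIF, and the media overlapped at P10 (edgeR adjusted p from 0.305 to 0.931). At P20 it stood at 80.9, 84.3 and 78.8 in Serum/LIF, 67.0, 78.3 and 85.6 in EMM, and 28.2, 43.6 and 33.5 in 2i/LIF. The P20 2i/LIF libraries lay below all other P20 libraries, and 2i/LIF was lower than Serum/LIF by −1.16 (SE 0.24, edgeR adjusted p = 0.000486). The fall of Snai1 from P10 to P20 in 2i/LIF, −1.04 (SE 0.25, edgeR adjusted p = 0.00243), was lost with only the 2 groups in the fit (adjusted p = 0.0281) and without P10 2i/LIF replicate 2 or P20 2i/LIF replicate 3 (−0.83 and −0.98, adjusted p = 0.019 and 0.0122), and was kept with the 6 libraries paired by number (adjusted p = 0.00721). EMM and Serum/LIF differed by 0.03 (SE 0.24) at P10 and −0.08 (SE 0.22) at P20, so the rise of Snai1 seen within hours of EMM was not detected at either passage. Snai2 held between 2.79 and 34.4 normalized counts over the 18 libraries, and no passage comparison passed in edgeR (lowest unadjusted p 0.0491) or in DESeq2. Its SEs between groups were 0.48 to 0.53, and at these counts a difference of 1.10 (P10 EMM against Serum/LIF) was not called.

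Across the remaining comparisons, 6 members changed between P10 EMM and P10 2i/LIF, 4 higher and 2 lower, beside 45.1% of all tested genes, and 8 at P20, 5 higher and 3 lower, beside 48.6%. Between 2i/LIF and Serum/LIF 7 changed at each passage, beside 52.0% at P10 and 44.2% at P20. From P10 to P20, 3 members changed in Serum/LIF, 2 higher and 1 lower, beside 6.01% of all genes (3.16% higher and 2.85% lower), 4 in EMM beside 25.3%, and 5 in 2i/LIF beside 28.3%. With the replicate number as a block within 2i/LIF, whose same-numbered libraries deviated together, 6 changed there, Fn1 being the gene added, beside 35.1% of all genes in the same fit. Whether a difference between media depended on the passage was tested for each pair. For EMM against Serum/LIF 4 members passed, 2 in each direction, beside 14.7% of all genes (8.28% higher and 6.43% lower). For EMM against 2i/LIF 5 passed, 4 higher and 1 lower, beside 32.3% (6 with the 2i/LIF block, Zeb1 being added at −0.44, SE 0.13, edgeR adjusted p = 0.00798, beside 38.7% in that fit), and for 2i/LIF against Serum/LIF 6 passed, 1 higher and 5 lower, beside 20.0% (9.16% higher and 10.9% lower). The comparisons share their groups, so they are set side by side and are not independent of each other.

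**Figure D5:**
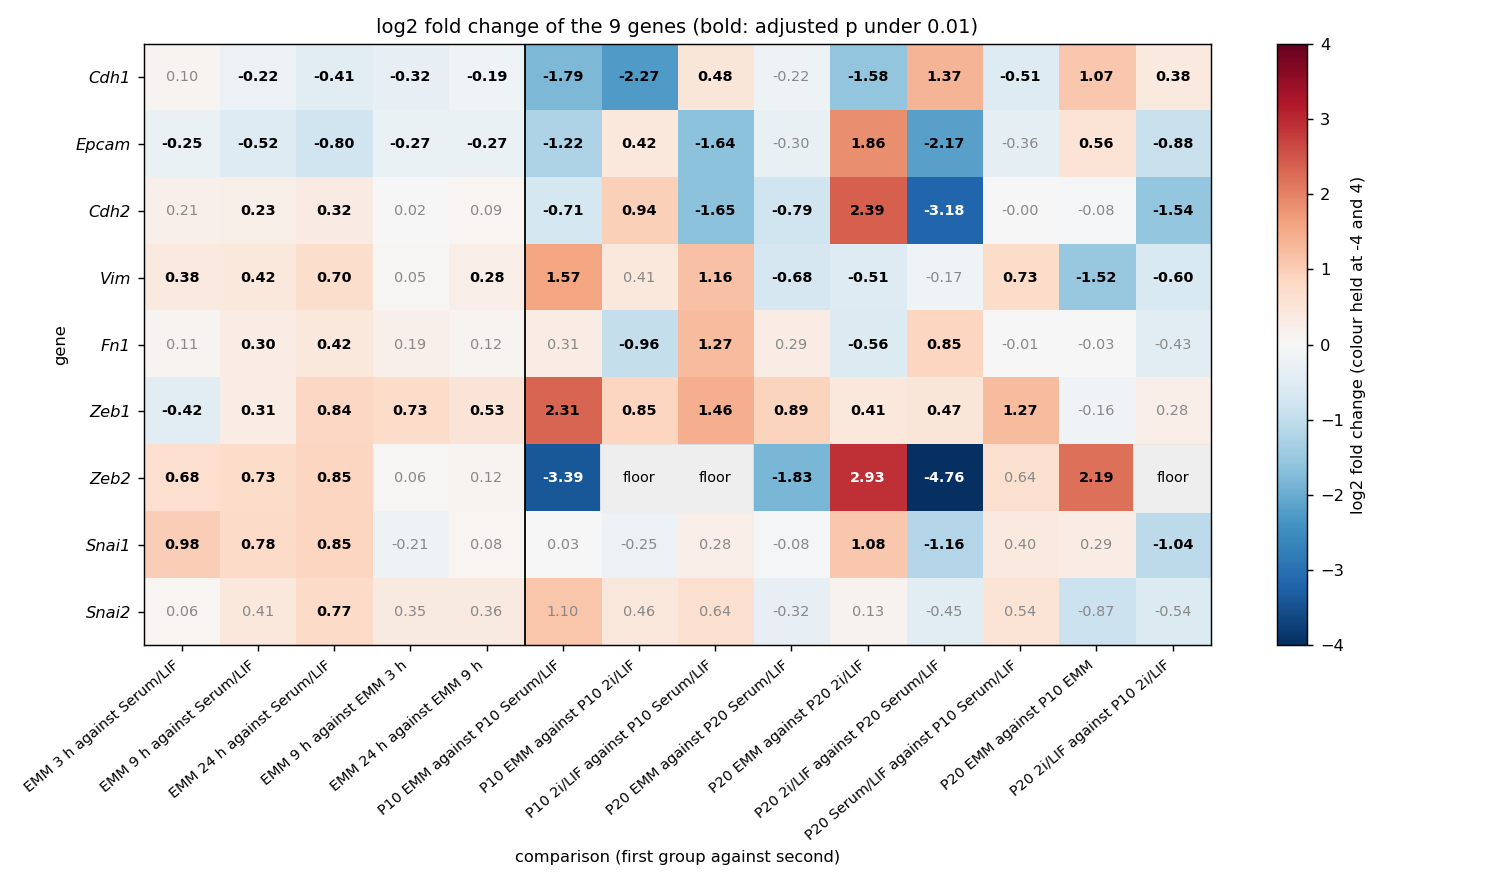
Log2 fold change (number and colour, held at −4 and 4) of each gene (vertical axis) in 14 comparisons (horizontal axis), time course left of the black line and passages right; bold marks an adjusted p under 0.01, and cells marked "floor" have a group at the detection floor. At both passages Cdh1 and Epcam share a sign in EMM against Serum/LIF but not in EMM against 2i/LIF, and Vim goes from 1.57 to −0.68 between the passages.

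Levels between genes were compared as TMM-scaled CPM per kilobase of exon. In Serum/LIF at 0 h Epcam (120 ± 1.85, SD, n = 3) and Cdh1 (118 ± 1.17) overlapped at the top, followed by Fn1 (44.9 ± 3.12) and Vim (38.1 ± 0.647). Snai1 stood at 3.38, Cdh2 at 1.40, Zeb1 at 1.09, Snai2 at 0.343 and Zeb2 at 0.0967, each below the one before it without overlap. After 24 h of EMM Cdh1 (88.5 ± 1.40) was above Epcam (69.1 ± 1.08), and Vim and Fn1 overlapped at 62.0 and 60.0. In P10 EMM the order was inverted, with Vim at 124 ± 4.86 and Fn1 at 78.6 (69.9 to 91.0) above Epcam (37.9 ± 4.53) and Cdh1 (35.8 ± 0.380), which overlapped with each other. In P20 EMM Fn1 (77.0 ± 7.05) and Cdh1 (71.1 to 79.1) overlapped, above Epcam at 56.0 ± 2.78 and Vim at 43.2 ± 1.78. P20 2i/LIF had the highest Cdh1 of the passage groups, at 225 ± 13.4, over Fn1 at 114 ± 19.8, Vim at 61.3 ± 11.8 and Epcam at 15.3 ± 0.926. In every group the 4 repressors and Cdh2 were below 7 on this scale, and Zeb2 had the lowest mean of the 9.

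Other genes were ranked by how closely their group means followed a member, as the root-mean-square log2 difference over the 10 groups, centred within each experiment, among 12924 genes. The nearest to Cdh1 was Dhcr7 (0.153), followed by St7 (0.226) and Tes (0.229). For Epcam they were Jag2 (0.134), Zfp334 (0.139) and Syde2 (0.152), and for Cdh2 Crim1 (0.144), Morc4 (0.177) and Sdc3 (0.199). Zeb1 was followed at more distance by Gm867 (0.201), Eldr (0.244) and Gm5134 (0.262). Zeb2 had Fosl2 (0.277), Timp2 (0.282) and Jph2 (0.337). As Zeb2 held at most 5 counts in any 2i/LIF library, its distances rest in part on values at or near the detection floor. Vim, Fn1, Snai1 and Snai2 spanned less than 2 log2 units and were not ranked.

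After 24 h of EMM the wider lists of epithelial and mesenchymal genes each moved in both directions. Of the genes of epithelial junctions and keratins, 9 of 25 rose and 8 fell, with a median of −0.06, and 10 of 29 genes of mesenchymal matrix and cytoskeleton rose and 9 fell, with a median of 0.04, beside a median of 0.00 for all tested genes, of which 21.8% were higher and 22.2% lower. Cdh3, the gene of P-cadherin, fell from a mean of 1458 to 526 normalized counts (−1.47, SE 0.06, edgeR adjusted p = 5.36e-11), and Krt7, a keratin of simple epithelia, rose from 87.4 to 179 (1.04, SE 0.15, edgeR adjusted p = 3.44e-05). Krt7 is also on the list of trophectoderm markers, of which 3 of 4 tested were higher and 1 lower (median 0.89). Among other markers tested, 4 of 8 of primitive endoderm and 3 of 5 of neural cells were higher, and 3 of 6 of fibroblasts were lower. The part of these markers in the list values was not tested. Tgfbi, a TGF-beta induced matrix protein, rose from 281 to 969 (1.79, SE 0.07, edgeR adjusted p = 4.73e-11), and the matrix protease gene Mmp9 fell from 74.9 to 27.8 (−1.42, SE 0.20, edgeR adjusted p = 2.4e-05). Among epithelial regulators 5 of 17 rose and 8 fell. Llgl2, a polarity gene, rose by 1.20 (SE 0.04), and Rab25, a small GTPase of epithelia, fell by −1.39 (SE 0.08), with edgeR adjusted p-values of 8.25e-12 and 2.27e-09. Of 12 other cadherins measured 3 rose and 2 fell, Cdh22 rising by 1.86 (SE 0.12, edgeR adjusted p = 1.11e-08). Of the 15 other mesenchymal regulators 4 rose and 3 fell, with Hmga2 higher by 1.04 (SE 0.05) and Snai3, a further Snail family gene, lower by −1.26 (SE 0.15), at edgeR adjusted p-values of 1.1e-10 and 6.21e-06.

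In P10 EMM against Serum/LIF, 23 of 25 epithelial junction and keratin genes fell (median −2.20), and 21 of 30 mesenchymal matrix genes fell while 4 rose (median −2.44), beside a median of 0.01 for all genes, of which 18.7% were higher and 18.7% lower. In P10 2i/LIF against Serum/LIF, 23 of the 25 epithelial genes were lower too and 1 higher (median −1.74), beside 25.6% of all genes lower. Of the matrix genes 25 were lower there (median −3.64). Between P10 EMM and P10 2i/LIF, 7 epithelial genes were higher in EMM and 8 lower (median 0.05), beside 22.9% and 22.2% of all genes. Of the matrix genes 16 were higher and 3 lower in that pair (median 1.01). In P10 EMM against Serum/LIF the trophectoderm markers, which share Krt7 with the epithelial list, were lower too. They summed to 1.91 to 2.63 CPM against 20.7 to 21.9 (2 of 4 tested lower, median −2.06). In P10 2i/LIF, where epithelial genes were also lower than in Serum/LIF, the sum was 30.3 to 42.9 CPM. Of 5 mesoderm and primitive streak markers tested, 3 were lower and 1 higher in P10 EMM (median −2.33). The part of these markers in the list values was not tested. By P20, 10 of the 25 epithelial genes and 18 of the 30 mesenchymal genes were lower in EMM than in Serum/LIF, and 2 of the mesenchymal genes were higher (medians −0.21 and −1.25), beside 13.6% of all genes higher and 12.5% lower. Markers of trophectoderm (2 of 4 tested, median −2.24) and of mesoderm and primitive streak (3 of 5, median −2.50) were lower in the same comparison. Their part in the list values was not tested. Col1a1 was lower in P20 EMM by −6.88 (SE 0.27, edgeR adjusted p = 9.69e-12), from a mean of 3775 to 31.8 normalized counts, and Krt7 by −3.09 (SE 0.38, edgeR adjusted p = 5.73e-06). Loxl2, a lysyl oxidase that crosslinks collagen, was higher by 1.40 (SE 0.21, edgeR adjusted p = 4.17e-05). Among TGF-beta ligands and receptors 3 of 15 were higher and 7 lower in P20 EMM, with the ligand Tgfb2 lower by −3.89 (SE 0.27, edgeR adjusted p = 5.34e-09) and the latency protein Ltbp3 higher by 1.04 (SE 0.16, edgeR adjusted p = 4.38e-05). From P10 to P20 in EMM, 16 of the 25 epithelial genes rose (median 0.88), and of the 30 mesenchymal matrix genes 9 rose and 4 fell (median 0.31), beside 13.3% of all genes higher and 11.9% lower. Between Serum/LIF and EMM the fibroblast marker sums given above were lower together with the matrix list, which shares Col1a1, Col1a2, Col3a1, Postn and Thy1 with those markers.

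Against 2i/LIF, P20 EMM was higher for 13 of 25 epithelial genes and lower for 4 (median 0.68), and higher for 19 of 30 matrix genes and lower for 4 (median 1.67), beside a median of 0.02 for all genes, of which 25.7% were higher and 22.9% lower. Of the primitive endoderm markers, which share no gene with either list, 6 of 7 tested were higher in the same comparison (median 2.37), and their part in these values was not tested. Cgn, the tight junction gene cingulin, was higher by 2.80 (SE 0.08, edgeR adjusted p = 1.21e-14), and Esrp1, a splicing factor of epithelial cells, by 4.64 (SE 0.28, edgeR adjusted p = 8.42e-11). The keratin gene Krt8 and the epithelial factor Elf3 were lower in EMM by −2.12 (SE 0.18) and −2.01 (SE 0.10), with edgeR adjusted p-values of 8.52e-09 and 6.15e-12. Of the 10 other cadherins measured 6 were higher in EMM. Cdh9 was at most 3 counts in every P20 2i/LIF library and at least 24.6-fold higher in EMM, and the myosin light chain gene Myl9, at 0 or 1 count there, was at least 37.2-fold higher. In 2i/LIF against Serum/LIF at P20, 26 of 30 matrix genes were lower and 2 higher (median −3.80), beside 23.2% of all genes lower, although Fn1 was higher there. Of the 25 epithelial genes 18 were lower there and 1 higher (median −0.84). All 6 fibroblast markers tested were lower in the same comparison (median −5.82), 5 of the 8 markers being on both lists, and their part in the matrix values was not tested. Acta2, smooth muscle actin, was at 0 or 1 count in P20 2i/LIF and at least 230.0-fold higher in Serum/LIF. Sparc, a matrix glycoprotein gene, was higher in 2i/LIF by 0.74 (SE 0.13, edgeR adjusted p = 0.000118). Of the fibronectin receptor genes 6 of 9 were lower in P20 2i/LIF and 1 higher, the integrin gene Itga9 lower by −4.18 (SE 0.16, edgeR adjusted p = 5.24e-13) and Itgav higher by 0.56 (SE 0.12, edgeR adjusted p = 0.000811).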

How the data were processed

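Total RNA of E14tg2a cells was sequenced in 30 libraries, 12 in the time course and 18 in the passage experiment. The authors prepared the time-course libraries with a NEBNext Ultra II kit and the passage libraries with its Directional version, after depletion of ribosomal RNA, and took 3 biological replicates per condition from independent experiments. The time-course table that the authors deposited holds whole counts per Ensembl gene, aligned to mm10 with STAR, where the submitters' processing notes name featureCounts and the study's methods another counter. For the passages, the authors deposited estimated counts (Salmon per the submitters' processing notes), 9.98% of which were not whole, and these were rounded. The notes also name DESeq2, and give no versions. A library labelled 0 h stands for Serum/LIF, while its protocol text speaks of 24 h in that medium.

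Each table was fitted with edgeR 4.0.16 in R 4.3.3 (TMM, filterByExpr, glmQLFit and glmQLFTest, all groups of an experiment in 1 model), leaving 16049 and 16054 genes, and adjusted by Benjamini-Hochberg. SE is the log2 difference divided by the square root of F. Where a group was at or under 3 counts in every library, the fold was set against that floor. Alternatives were DESeq2 1.42.0 (its size factors and its Wald test), library totals, other count filters, a minimum log2 fold of 1, only the 2 groups compared, replicate blocks, scaling within the gene's own chromosome, and leaving out each library. On simulated data for P20 EMM against P20 Serum/LIF, run on 15481 genes, 81 of 100 genes changed by 1 on the log2 scale and 99 of 100 changed by 2 were called, with 1 false call. For EMM 24 h against Serum/LIF, run on 15813 genes, these were 93 and 100 of 100, with 3 false calls. The simulated libraries were independent, with the same dispersion of a gene in every group, and no other genes were changed. In the data 26.0% and 44.0% of genes were called in these 2 comparisons. Unequal spread between groups, broad shifts and paired libraries were therefore not covered by the simulation. Between P10 and P20 2i/LIF the deviations from the group mean of same-numbered libraries correlated at 0.134 to 0.299 in all 3 pairs, against −0.212 to 0.083 in the other 42 passage pairs, so a replicate block within 2i/LIF was added after seeing the data. As the block was chosen from these same libraries, calls kept or gained with it have no separate support. Number 1 was the shallowest library in both groups (10030882 and 6944918 total counts), and whether depth made it deviate was not tested. The labels do not say what a number shares. No 2 libraries of a group agreed within sampling noise. An exact permutation test of 3 against 3 libraries cannot go below p = 0.1 and was not used.

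The members and lists were chosen with earlier results of these data known. Named genes were the 9 members, the largest rise and fall per list among genes with separate groups and a mean of at least 50 normalized counts, and the 3 genes nearest to a member spanning over 2 log2 units; not all of these are printed. The lists were epithelial junctions and keratins, epithelial regulators, catenins and nectins, other cadherins, mesenchymal matrix and cytoskeleton, mesenchymal regulators, fibronectin receptors and TGF-beta ligands and receptors, with 6 lists of cell type markers.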

Additional observations from a re-analysis of the deposited data

Results flagged for a closer look

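The difference between 2 media depended on the passage for 6 of the 9 genes, as tested by the interaction of medium and passage in edgeR over all tested genes. Values are the log2 difference at P20 minus that at P10, with its SE, and all had an edgeR adjusted p under 0.01. At this threshold 14.7% of all tested genes passed for EMM against Serum/LIF, 32.3% for EMM against 2i/LIF and 20.0% for 2i/LIF against Serum/LIF. The 3 contrasts share their groups.

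For EMM against Serum/LIF, 4 genes passed. Cdh1 stood at 1.58 (SE 0.09) and Epcam at 0.92 (SE 0.13), so both were nearer to Serum/LIF at P20 than at P10. Vim was at −2.25 (SE 0.22), having turned from higher to lower in EMM, and Zeb1 at −1.43 (SE 0.15), where the level in Serum/LIF was the one that moved.

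For EMM against 2i/LIF, 5 genes passed. Cdh1 was at 0.69 (SE 0.09), or 1.06 (SE 0.11) when scaled to its own chromosome. Cdh2 was at 1.45 (SE 0.31), Epcam at 1.44 (SE 0.13), Vim at −0.92 (SE 0.22) and Snai1 at 1.33 (SE 0.34). With a replicate block within 2i/LIF Zeb1 passed too (−0.44), as it did when scaled to its own chromosome (−0.57, SE 0.14), where its rise from P10 to P20 in 2i/LIF also passed (0.43, SE 0.10, in place of 0.28). The Snai1 call was lost without P10 2i/LIF replicate 2 or P20 EMM replicate 3 (adjusted p = 0.0133 and 0.011).

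For 2i/LIF against Serum/LIF, 6 genes passed. Cdh1 was at 0.89 (SE 0.09), or 0.43 (SE 0.11, edgeR adjusted p = 0.00283) when scaled to its own chromosome, whose median difference from P10 to P20 in 2i/LIF was 0.32. Cdh2 was at −1.54 (SE 0.30), Vim at −1.33 (SE 0.22), Zeb1 at −0.99 (SE 0.15), Epcam at −0.53 (SE 0.13) and Snai1 at −1.44 (SE 0.33). The Epcam call was lost without any of 7 single libraries (−0.44 to −0.54, adjusted p from 0.0106 to 0.0215), and the Snai1 call without P10 2i/LIF replicate 2 (−1.23, adjusted p = 0.012).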

How the results depend on the processing

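Of 1186 values for single genes under other settings than a left-out library, 1117 kept their direction and their side of the threshold, 23 lost a call, 31 gained one and 15 changed sign. With 1 library left out, 985 of 1080 were kept, 60 lost a call, 3 gained one and 32 changed sign. With a log2 fold above 1 also required, as the study's own criterion has it, the count of changed members fell to 0 in all 5 time-course comparisons (5, 8, 9, 3 and 4 without it). By edgeR all 9 had an unadjusted p under 0.05 at 24 h. The count of changed members fell from 6 to 2 in P10 EMM against 2i/LIF, from 4 to 1 in P20 EMM against Serum/LIF, from 8 to 5 in P20 EMM against 2i/LIF, from 3 to 1 and from 5 to 2 from P10 to P20 in Serum/LIF and in 2i/LIF, and from 5 to 3 and from 6 to 3 for the passage dependence of EMM and of Serum/LIF against 2i/LIF. Some called members of comparisons not listed were also under that fold. Among them were Fn1 (0.85) and Zeb1 (0.47) in P20 2i/LIF against Serum/LIF, Cdh2 in P10 EMM against Serum/LIF (−0.71) and Cdh1 in P10 2i/LIF against Serum/LIF (0.48). With only the 2 groups in the fit, 2 members in place of 5 changed from P10 to P20 in 2i/LIF. With 1 library left out, that count ran from 3 to 5, with 3 without P10 2i/LIF replicate 2 or P20 2i/LIF replicate 3, and in P20 EMM against Serum/LIF it ran from 2 to 4, with 2 without P20 Serum/LIF replicate 3.

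Signs turned for Cdh1 and for values that were not called, those of Snai2 of up to 0.46 among them, and the cause was not tested. Cdh1 from P10 to P20 in 2i/LIF was −0.0124 when scaled to its own chromosome. With library totals alone, Cdh2 and Fn1 in Serum/LIF from P10 to P20 were 0.0687 and 0.0608, Fn1 in EMM 0.0466 and Snai2 at 3 h −0.0058; scaled to their own chromosomes the first 2 were 0.0028 and 0.027. Without the filter on low counts, Fn1 from P10 to P20 in EMM was 0.012. The passage difference of Fn1 in EMM against Serum/LIF was 0.0058 where every library had to hold 10 counts or more and 0.0546 without the filter. Snai1 in P10 EMM against Serum/LIF was −0.046 with that minimum, −0.0035 with DESeq2 size factors, −0.0037 in the Wald test, −0.0667 with library totals and −0.0426 without the filter. With 1 library left out, the values ran as follows. Cdh2 ran from −0.2171 to 0.1462 for the passage difference of EMM against Serum/LIF, from −0.1408 to 0.0221 in EMM and from −0.2282 to 0.1187 in Serum/LIF from P10 to P20. Fn1 ran from −0.1659 to 0.0998, from −0.1224 to 0.0906 and from −0.1095 to 0.1201 in the same 3. Snai1 ran from −0.3895 to 0.0876 in that passage difference, from −0.1691 to 0.3072 at P10 and from −0.1575 to 0.0109 at P20 in EMM against Serum/LIF. Snai2 ran from −0.0445 to 0.2382 at 3 h, from −0.6949 to 0.1342 for the passage difference of EMM against 2i/LIF, from −0.0164 to 0.766 at P10 and from −0.2285 to 0.5199 at P20 in that pair, and from −0.6675 to 0.0767 in P20 EMM against Serum/LIF. Zeb2 ran from −0.0819 to 0.1776 from 3 to 9 h. Library totals moved the median of all genes by −0.12 in P20 2i/LIF against Serum/LIF, and no other scaling moved one by over 0.1.

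Among groups that share 3 numbers, all same-numbered libraries deviated together only in P10 and P20 2i/LIF. With the number as a replicate block within 2i/LIF, chosen after seeing the data, Fn1 from P10 to P20 in 2i/LIF (−0.43) and the passage dependence of Zeb1 in EMM against 2i/LIF (−0.44) gained a call and no other call changed; with only those 6 libraries in the blocked fit, the same 6 members changed and Zeb2 was not tested. No numbers were shown to pair libraries by anything but these counts. In the time course 5 of 18 pairs had correlations over 0.1 (5 of 15 with the numbers of the descriptions, which differ from those of the titles for EMM). By the descriptions Serum/LIF and EMM 24 h share 2 numbers, and both pairs were over 0.1 (0.152 and 0.28). With the title numbers as a replicate block across all groups, 1 call was gained, Fn1 from 3 to 9 h (0.20), and 1 lost, Vim in P20 EMM against 2i/LIF (−0.50), so 7 members in place of 8 changed there and 4 in place of 3 from 3 to 9 h. With the description numbers, 3 calls were lost, and 8 in place of 9 changed at 24 h and 6 in place of 8 at 9 h. Counts were low for Zeb2 in 2i/LIF and Snai2 in the passages, where no P20 2i/LIF library held over 5 counts of Zeb2 and Snai2 ran from 3 to 26 counts. The 5 counts of Zeb2 were in a library of 21090069 total counts, and the part of depth was not tested.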

Other observations

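The list of catenins, nectins and other adherens junction genes holds the partners of cadherins inside the cell and a second family of adhesion proteins. In P10 EMM against Serum/LIF, 3 of its 13 genes changed upwards and 2 downwards (median 0.12), near the 18.7% of all genes in each direction, beside −1.79 for Cdh1. Against P10 2i/LIF, 8 of the 13 were higher in EMM and 1 was lower (median 0.41), where 22.9% of all genes were higher and 22.2% lower, beside −2.27 for Cdh1. In the same pair at P20, 6 of the 13 were higher and 4 lower (median 0.45), where 25.7% of all genes were higher and 22.9% lower. Among the regulators of the mesenchymal state other than the 4 members, Gsc, a homeobox gene of the organizer, was at 0 or 1 count in every P20 EMM library and at least 44.3-fold higher in P20 2i/LIF. Ets1 stood at means of 175 normalized counts in P20 Serum/LIF, 55.5 in P20 EMM and 16.6 in P20 2i/LIF, the order that the P20 means of Epcam, Cdh2, Zeb2 and Snai1 also had. Markers of trophectoderm summed to 1.91 to 3.44 CPM in passaged EMM, against 11.9 to 22.4 in Serum/LIF and 22.9 to 42.9 in 2i/LIF. In the time course they went the other way, from 7.08 to 8.16 CPM in Serum/LIF to 12.8 to 13.5 after 24 h of EMM. Markers of primitive endoderm summed to 14.4 to 16.0 CPM in Serum/LIF at 0 h and to 26.4 to 27.0 after 24 h of EMM, all 8 of them above the floor in at least 1 library at both times. In the passages they were lower in P10 EMM (7.34 to 8.55 CPM) than in P10 Serum/LIF (12.9 to 16.7), and stood at 15.1 to 24.3 in P20 EMM, 16.8 to 22.4 in P20 Serum/LIF and 5.57 to 8.78 in P20 2i/LIF. Those of mesoderm and primitive streak summed to 22.1 to 29.6 CPM over the time course, and those of neural cells to 126 to 218, highest at 3 h.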
